A study of Mus musculus with 12 samples.

Results

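The comparison set dorsal root ganglion cultures given the GI-SINE antisense oligonucleotide (ASO) mix against cultures given a control ASO. It takes 8 of the 12 libraries of the series, 4 in each group, and all genes of the count table. The tested cultures were transfected with the GI-SINE ASO mix at 50 nM (n = 4) and the cultures they are set against with the ASO control at 50 nM (n = 4). Untransfected cultures (n = 4) were read beside them to show what transfection with the control ASO did by itself. All 12 libraries came from primary cultures of C57/Bl6 wt mice. Each of the 4 replicate numbers was an independent whole-culture preparation from 1 mouse, divided among the 3 conditions, so mouse was kept as a block in the reported fit. These were mixed cultures, not purified neurons. Age, sex and time in culture were not given in the sources used here. No group was transfected without an oligonucleotide, and the level of the targeted B2 RNA itself was not analysed here.

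Dorsal root ganglia hold the cell bodies of sensory neurons, with satellite glia, Schwann cells and fibroblasts around them, and peripheral axons of these neurons can regrow after injury. B2 elements are short interspersed repeats of the mouse genome, transcribed by RNA polymerase III from their own promoters and also carried inside longer RNA polymerase II transcripts. The title of the series calls the targeted group of B2 RNAs growth inducing. An ASO pairs with its target RNA, and the gapmer kind lets RNase H cut the RNA strand of the pair; the chemistry of these ASOs was not given in the sources used here.

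Total counts per library were between 14864622 and 22704267. On the first principal component, with 57.32% of the variance, mix libraries of mice 1 to 3 scored 64.39 to 72.25 and the mix library of mouse 4 scored 25.94. Control ASO libraries scored -15.30 to 0.30, and untransfected ones -58.18 to -44.72. Of 14 sensory neuron marker genes, 7 were higher and 1 lower with the mix, and their summed level was 10002 to 12732 CPM (counts scaled to library size) in mix libraries and 8571 to 10766 CPM in control ASO libraries. Fibroblast markers had 0 higher and 7 lower of 12, and summed to 215 to 348 CPM with the mix and 370.3 to 553 CPM with control ASO. Schwann cell markers had 2 higher and 7 lower of 11, with sums of 687 to 855 CPM in mix libraries and 621 to 695 CPM in control ASO libraries. Satellite glia markers (4 higher, 4 lower of 11) summed to 537 to 846 CPM with the mix and 479.8 to 670.4 CPM with control ASO, and macrophage markers (2 higher, 0 lower of 10) to 50.0 to 64.5 CPM with the mix and 26.0 to 42.5 CPM with control ASO. Mural (1 higher, 4 lower of 8), endothelial (0 and 3 of 9), other leukocyte (0 and 1 of 4) and proliferation markers (4 and 4 of 17) stayed at low sums in both groups, at most 275 CPM. No marker list had a member at 0 in every library. The part that a changed mixture of cells has in the results below was not tested. In these bulk libraries, fewer cells of a type and less RNA per cell cannot be told apart.

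Gene expression differed widely between the mix and the control ASO. Of 16831 genes tested, 9454 were called at an adjusted p under 0.05 (56.2%), of which 4600 were higher with the mix (27.3% of those tested) and 4854 lower (28.8%). These shares are the background for every count of members below, and the median log2 fold change over all tested genes was -0.03. The shares also went with abundance. In the least abundant of 5 equal bins of protein-coding genes, 13.9% were higher and 22.5% lower. In the most abundant bin, 44.1% were higher and 28.1% lower. The lists below were not matched to the background by abundance, so shares of abundant genes also stand beside that last bin. At least 2-fold changes were fewer, 836 genes higher (4.97%) and 552 lower (3.28%). Scaling by library size alone in place of trimmed mean scaling moved the median of all genes by -0.12 on the log2 scale, and 34.0% of the genes called were then higher, against 48.7% in the main fit.

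Direction held in mice that the calls had not used. Among genes called higher from the other 3 mice, 99.0% were also higher with the mix in mouse 1, 98.4% in mouse 2, 96.5% in mouse 3 and 88.7% in mouse 4. For genes called lower these shares were 98.7%, 98.4%, 96.4% and 86.1%, and over all tested genes they were 86.0%, 84.7%, 82.1% and 76.7% in mice 1 to 4. The sizes differed between mice. Genes called higher without mouse 4 had a median log2 difference of 0.28 in mouse 4 itself, against 0.55 in the fit of the other mice, and genes called lower had -0.23 against -0.50. In mice 1, 2 and 3 left out in turn, genes called higher had medians of 0.56, 0.57 and 0.48 in the mouse left out. Genes of a library are not independent, so these shares are descriptions. Mouse 4 was the mouse with the smallest libraries of both transfected groups (16416459 counts with the mix and 14864622 with control ASO); the part of depth in its smaller differences was not tested.

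**Figure D1:**
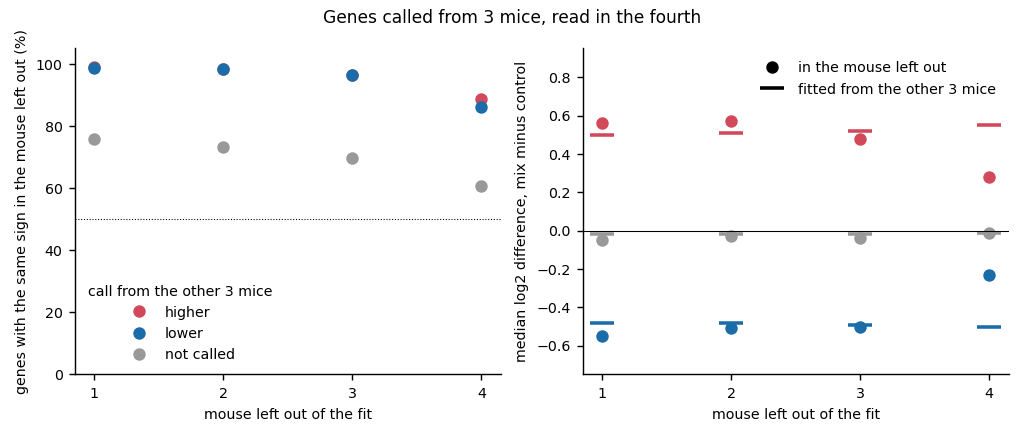
Left, share (%) of genes called from 3 mice that had the same sign in the mouse left out of the fit, by mouse, for genes called higher, lower or not called. Right, median log2 difference of the mix minus control ASO in the mouse left out (points) and in the fit of the other 3 (dashes). In mouse 4 the points lie closer to 0 than the dashes, at 0.28 against 0.55 for genes called higher.

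Among abundant genes (mean log2 CPM of at least 4), the 12 largest rises included Gtse1, the receptors Mrgprd and Fzd5, and 3 genes of stress or nucleotide metabolism (Plk2, Gadd45b and Impdh2). Gtse1, Plk2, Tlcd2, Taf7, Gadd45b and Nabp1 had a fitted log2 change outside -0.25 to 0.25 from untransfected to control ASO cultures. Gtse1, a p53-regulated protein of the G2 phase, measured 50.7, 52.2, 55.8 and 45.6 CPM in mix libraries of mice 1 to 4 and 7.49, 6.23, 8.58 and 12.9 CPM in control ASO libraries. There was no overlap between the groups, and the log2 fold change was 2.59 ± 0.20 (SE; adjusted p = 8.87e-06). Mrgprd, a receptor of nonpeptidergic nociceptors, measured 53.7, 47.0, 71.3 and 13.1 CPM with the mix and 5.01, 8.12, 12.8 and 6.31 CPM with control ASO. Its lowest mix value was that of mouse 4, still above every control value, and its log2 fold change was 2.47 ± 0.35 (adjusted p = 9.68e-04). Plk2, an activity-induced polo-like kinase, averaged 228 ± 22.3 CPM with the mix and 56.3 ± 29.0 CPM with control ASO (SD, n = 4 each here and below), a log2 fold change of 2.15 ± 0.29 (adjusted p = 8.00e-04). Gadd45b, a stress-induced growth arrest gene, averaged 103 ± 14.1 CPM with the mix and 35.5 ± 26.1 CPM with control ASO (log2 fold change 1.76 ± 0.29). Nabp1, a single-stranded DNA binding protein, rose by 1.65 ± 0.16 and Taf7, a TFIID subunit encoded by a gene without introns, by 1.85 ± 0.17 on the log2 scale. Tlcd2 rose by 1.95 ± 0.17, but its gene overlaps the microRNA host gene Mir22hg on the same strand, so its reads may be shared.

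The 12 largest falls in abundant genes included Axl, Nes, Tns3, Piezo1 and the matrix genes Fbln2 and Col12a1. All 12 except Ggta1, given below, had a fitted log2 change outside -0.25 to 0.25 from untransfected to control ASO cultures. Axl, a receptor tyrosine kinase for Gas6, measured 2.55, 13.4, 7.15 and 15.0 CPM in mix libraries and 29.9, 70.8, 33.5 and 57.6 CPM in control ASO libraries. No values overlapped, and its log2 fold change was -2.37 ± 0.35 (adjusted p = 0.00130). Nes, the intermediate filament of progenitors and activated glia, averaged 14.1 ± 11.6 CPM with the mix and 64.4 ± 28.2 CPM with control ASO (log2 fold change -2.30 ± 0.37). Cryab, a small heat shock protein, averaged 17.7 ± 6.93 and 55.3 ± 17.1 CPM (mix and control ASO; log2 fold change -1.66 ± 0.18), and Tns3, a focal adhesion protein, 17.3 ± 6.08 and 43.2 ± 14.2 CPM (mix and control ASO; log2 fold change -1.32 ± 0.09). Hrh1, the histamine H1 receptor, averaged 13.5 ± 2.53 CPM with the mix and 30.3 ± 6.17 CPM with control ASO (log2 fold change -1.16 ± 0.11). Ptpn13, a cytoplasmic tyrosine phosphatase, fell with a log2 fold change of -1.08 ± 0.10 and the adaptor Sash1 with -1.24 ± 0.09. Of the matrix genes, Fbln2 had a log2 fold change of -1.23 ± 0.34 and Col12a1 of -1.22 ± 0.31, and their values overlapped between the groups. The call for Fbln2 ended without replicate 1 (-1.09, adjusted p = 0.0812), without replicate 3 (-1.25, adjusted p = 0.0912) and without replicate 4 (-1.32, adjusted p = 0.0501), and that for Col12a1 without replicate 3 (-1.23, adjusted p = 0.0794).

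A further group of genes differed with the mix but little between control ASO and untransfected cultures. Of 4797 called, abundant genes with the same direction in all 4 mice, 3937 had a fitted log2 change between -0.25 and 0.25 from untransfected to control ASO cultures. Over all tested genes the median of that change was 0.03. The share of all abundant genes inside the range was not counted, so the 3937 are not a trait of genes that differ with the mix. Pcdh17, a protocadherin of axons and synapses, measured 215, 201, 183 and 154 CPM with the mix and 57.4, 46.3, 48.6 and 53.4 CPM with control ASO, and untransfected cultures averaged 49.6 ± 2.21 CPM. Every mix value was well above every control value, and the log2 fold change was 1.87 ± 0.08. Slc19a2, the thiamine transporter, measured 104, 96.1, 87.0 and 75.5 CPM with the mix and 25.9, 21.8, 25.3 and 28.6 CPM with control ASO, beside an average of 23.5 ± 4.29 CPM in untransfected cultures. The compared values did not overlap, and the log2 fold change was 1.85 ± 0.14 (adjusted p = 1.89e-06). Siah2, a RING ubiquitin ligase, measured 94.5, 93.4, 74.3 and 51.2 CPM with the mix and 23.1, 24.6, 23.1 and 20.6 CPM with control ASO (log2 fold change 1.76 ± 0.11, adjusted p = 4.38e-08). Its value with the mix was lowest in mouse 4, and the groups did not overlap. Tmem79, an epidermal membrane protein, averaged 63.3 ± 13.8 CPM with the mix and 21.1 ± 2.05 CPM with control ASO (log2 fold change 1.58 ± 0.08), and the zinc finger gene Zfp428 45.2 ± 8.26 and 15.3 ± 0.953 CPM (mix and control ASO; log2 fold change 1.55 ± 0.10). Tmem79 overlaps its neighbour Glmp, so part of its reads may not be its own.

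Impdh2, the rate-limiting enzyme of guanine nucleotide synthesis, measured 36.5, 35.1, 29.9 and 23.6 CPM with the mix and 7.94, 8.17, 7.99 and 10.1 CPM with control ASO. There was no overlap between the groups, the log2 fold change was 1.88 ± 0.13 (adjusted p = 3.06e-08), and the mean of untransfected cultures, 8.62 ± 0.933 CPM, lay within the range of control ASO cultures. Its pseudogene copy Impdh2-ps gave 1.56 ± 0.13, and the reads of the pair cannot be told apart with certainty. In the list of nucleotide and tetrahydrobiopterin synthesis that holds Impdh2, 18 of 47 genes were higher and 12 lower, with a median of 0.01 that turned to -0.11 with library size scaling alone. Impdh1, the other isoform of the enzyme, averaged 244 ± 27.8 CPM with the mix and 143 ± 8.61 CPM with control ASO (log2 fold change 0.76 ± 0.06), and Uck1, a uridine-cytidine kinase, rose by 0.62 ± 0.07 on the log2 scale. Cad, the first enzyme of pyrimidine synthesis, did not pass the test (-0.04 ± 0.06).

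Among falls with little change on transfection, Ggta1, which makes the alpha-galactose epitope of non-primate glycans, measured 15.4, 16.9, 11.7 and 18.9 CPM with the mix and 37.6, 42.2, 40.7 and 29.5 CPM with control ASO. Untransfected cultures averaged 39.8 ± 1.87 CPM, the groups of the comparison did not overlap, and the log2 fold change was -1.26 ± 0.14 (adjusted p = 1.09e-05). Usp3, a deubiquitinase of histone H2A, measured 12.4, 12.9, 12.2 and 14.7 CPM with the mix and 24.4, 25.4, 26.9 and 25.4 CPM with control ASO (log2 fold change -0.97 ± 0.08). Its 4 mix values lay within a narrow band, below all control values. Rfx7, a winged helix transcription factor, averaged 14.7 ± 2.97 CPM with the mix and 27.8 ± 5.15 CPM with control ASO (log2 fold change -0.92 ± 0.08), and Trim25, the ubiquitin ligase of the RIG-I pathway, 28.5 ± 10.5 and 52.3 ± 1.60 CPM (mix and control ASO; log2 fold change -0.92 ± 0.18). Slc17a5, the lysosomal sialic acid exporter, had a log2 fold change of -0.94 ± 0.13, Prrg4 of -1.03 ± 0.20, Tm7sf3 of -0.95 ± 0.08 and Gtpbp4, a nucleolar GTPase, of -0.91 ± 0.08. Nbr1, an autophagy receptor, and Sh3pxd2b, an invadopodium adaptor, were among the abundant falls with the smallest p, with log2 fold changes of -0.70 ± 0.05 and -1.07 ± 0.08.

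**Figure D2:**
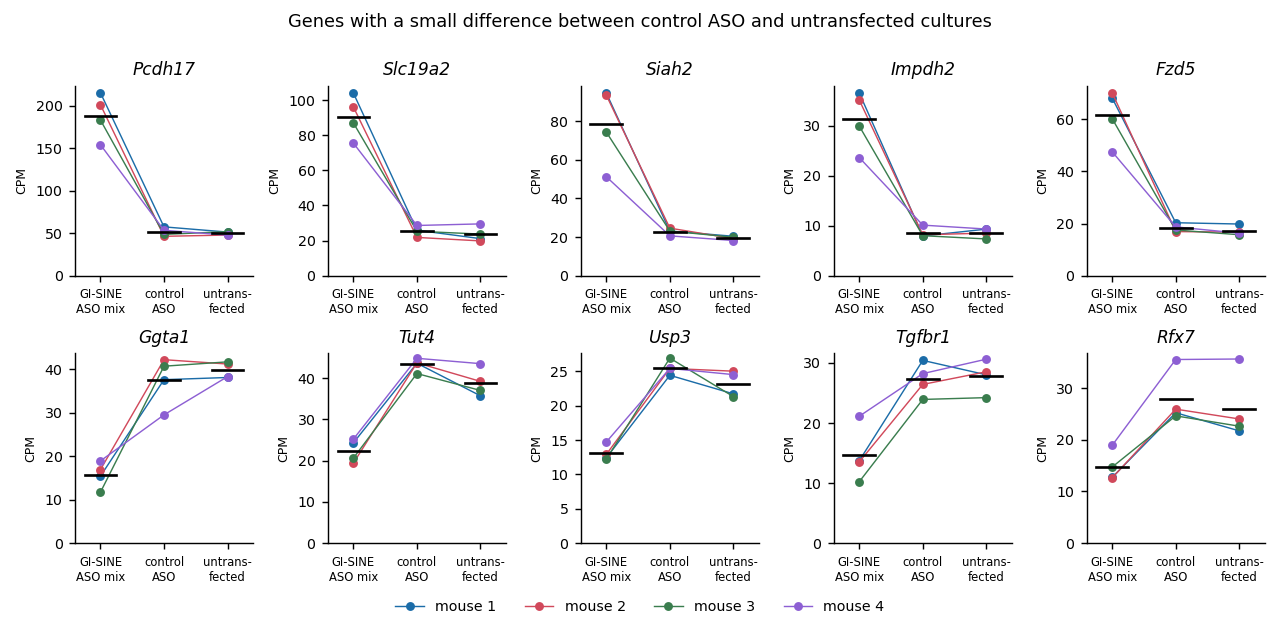
CPM (linear axis from 0) of 10 genes in GI-SINE ASO mix, control ASO and untransfected cultures. Each line joins the cultures of 1 mouse and black bars are group means. In every panel the 4 mix values lie outside the range of the control ASO values, and control ASO and untransfected means lie close together. The genes were picked for a large difference with the mix and a small change on transfection, so both traits go with the choice of genes.

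Sensory neurons signal through ion channels and receptors that set pain, touch and temperature thresholds, and through peptides released from dense core granules. Voltage-gated sodium channel genes had 10 higher and 0 lower of 14 tested, with a median log2 fold change of 0.53. With library size scaling alone the list had 8 higher and 3 lower, and without replicate 4 it had 2 lower. Beta subunits set channel gating and membrane insertion. Scn2b measured 129.6, 131, 162 and 70.0 CPM with the mix and 73.6, 69.8, 90.5 and 51.2 CPM with control ASO (log2 fold change 0.76 ± 0.08, adjusted p = 5.63e-07). The mix value of mouse 4 lay inside the control range and the other 3 above it. Scn3b rose by 0.67 ± 0.06 and Scn4b by 0.67 ± 0.08 on the log2 scale. The pore-forming subunits of nociceptors differed among themselves. Scn9a averaged 434 ± 21.2 CPM with the mix and 454 ± 43.2 CPM with control ASO, and Scn10a 439 ± 24.9 and 473 ± 77.2 CPM (mix and control ASO), and neither passed the test (adjusted p = 0.361 and 0.246). Without replicate 4 both passed, at log2 fold changes of -0.12 for Scn9a (adjusted p = 0.0345) and -0.18 for Scn10a (adjusted p = 0.00197). With the trend of transcript length and GC content removed, Scn9a passed in the other direction (0.17, adjusted p = 0.00232). Scn11a measured 244, 211, 295 and 100.1 CPM with the mix and 94.4, 99.3, 121 and 97.5 CPM with control ASO, a log2 fold change of 0.99 ± 0.24 (adjusted p = 0.0115). Mouse 4 had the only mix value inside the control range, and the call ended without replicate 1 (0.85, adjusted p = 0.0640), 2 (0.95, adjusted p = 0.0697) or 3 (0.90, adjusted p = 0.0762). Other pore-forming subunits that rose were Scn1a (1.12 ± 0.17), Scn3a (0.75 ± 0.16), Scn7a (0.39 ± 0.08) and Scn8a (0.18 ± 0.07), while Scn2a (-0.10 ± 0.09) and Scn4a (0.17 ± 0.19) did not pass the test; these 6 were chosen after their values were seen. Scn8a lost its call without replicate 1 (0.21) or 3 (0.10) and without the mouse block (adjusted p = 0.256). Sensory neuron marker sums, given above, also lay higher with the mix, with ranges that overlapped (10002 to 12732 CPM with the mix and 8571 to 10766 CPM with control ASO), and the part of neuron share in these channel, receptor, peptide and vesicle genes was not tested.

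Potassium and HCN channel genes had 22 higher and 10 lower of 50, with a median of 0.19, and 6 or 5 lower without replicate 1 or 3 and 5 without the mouse block. Kcna2, a juxtaparanodal delayed rectifier, measured 123, 92.5, 158 and 123 CPM with the mix and 61.4, 52.5, 68.4 and 87.5 CPM with control ASO (log2 fold change 0.89 ± 0.09). No mix value lay inside the control range. Kcnc1, which supports fast firing, averaged 39.6 ± 2.19 CPM with the mix and 22.7 ± 3.81 CPM with control ASO (log2 fold change 0.82 ± 0.08), and Kcna1 rose by 0.42 ± 0.07 on the log2 scale. Kcnn4, an intermediate calcium-activated channel of glia and immune cells, averaged 1.13 ± 0.482 CPM with the mix and 4.27 ± 1.12 CPM with control ASO (log2 fold change -1.93 ± 0.22), and was already lower in control ASO than in untransfected cultures (-1.53 ± 0.16).

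In the list of TRP, Piezo and acid-sensing channels, 10 of 22 were higher and 5 lower, with a median of 0.17. Without replicate 1, 2 or 3 the number lower was 2, 3 and 3. Trpm8, the cold and menthol receptor, measured 25.0, 22.4, 17.9 and 16.4 CPM with the mix and 11, 8.55, 9.27 and 11.5 CPM with control ASO (log2 fold change 1.03 ± 0.15, adjusted p = 6.08e-05). All mix values lay above all control values. Trpa1, the irritant receptor, averaged 28.7 ± 11.5 CPM with the mix and 15.8 ± 3.90 CPM with control ASO (log2 fold change 0.83 ± 0.16), with groups that overlapped. Asic3, an acid-sensing channel of muscle and joint afferents, rose by 0.45 ± 0.07 on the log2 scale. Piezo1, a mechanosensitive channel, averaged 17.4 ± 5.39 CPM with the mix and 37.0 ± 4.51 CPM with control ASO (log2 fold change -1.12 ± 0.09). It overlaps Ctu2 on the other strand, and whether the counting used strand was not given in the sources used here. Trpm7, a channel fused to a kinase, had a log2 fold change of -0.55 ± 0.08.

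Ionotropic transmitter receptors had 16 higher and 5 lower of 37, with a median of 0.20, and without the mouse block 10 were higher and 3 lower. Htr3a, the serotonin-gated channel, measured 79.7, 66.9, 78.4 and 46.7 CPM with the mix and 32.7, 31.0, 32.3 and 21.3 CPM with control ASO. Untransfected cultures averaged 27.7 ± 4.68 CPM, the compared groups did not overlap, and the log2 fold change was 1.20 ± 0.07 (adjusted p = 1.90e-09). Chrna3, a nicotinic receptor subunit, averaged 12.7 ± 5.56 CPM with the mix and 5.38 ± 1.82 CPM with control ASO (log2 fold change 1.21 ± 0.15). P2rx4, an ATP-gated channel, averaged 32.2 ± 2.59 CPM with the mix and 47.8 ± 4.15 CPM with control ASO (log2 fold change -0.57 ± 0.08). P2rx3, the ATP-gated channel of nociceptors, did not pass the test at 477 ± 72.2 CPM with the mix and 499.6 ± 80.5 CPM with control ASO, nor did the GABA receptor subunit Gabra2 (0.02 ± 0.07). Grik1, a kainate receptor subunit, had a log2 fold change of 0.28 ± 0.06, and its call ended without the mouse block (0.28, adjusted p = 0.244).

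Of 50 G protein-coupled receptor genes, 16 were higher and 9 lower, and the median of 0.07 turned to -0.06 with library size scaling alone. That scaling gave 11 higher and 18 lower, while 9 were higher without replicate 2 and 4 lower without the mouse block. Gabbr1, a GABA-B receptor subunit, measured 709, 684, 718 and 531 CPM with the mix and 457, 437, 484 and 384 CPM with control ASO (log2 fold change 0.58 ± 0.05). Control values stood apart from mix values in all 4 mice. Adora2a, an adenosine receptor, averaged 8.84 ± 0.904 CPM with the mix and 2.98 ± 0.875 CPM with control ASO (log2 fold change 1.61 ± 0.20). P2ry1, a receptor for ADP, rose by 0.77 ± 0.09 and Npy1r, a neuropeptide Y receptor, by 0.79 ± 0.11 on the log2 scale. The mu opioid receptor Oprm1 and the cannabinoid receptor Cnr1 did not pass the test, with log2 fold changes of -0.08 ± 0.08 and 0.17 ± 0.07. Cnr1 passed without replicate 3 (0.29, adjusted p = 0.00674).

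Peptide and granule cargo genes had 13 higher and 1 lower of 24, with a median of 0.25. Either without the mouse block or with library size scaling alone, 8 were higher. Tac1, the precursor of substance P, measured 165, 125, 157 and 94.6 CPM with the mix and 52.5, 40.9, 53.2 and 59.3 CPM with control ASO (log2 fold change 1.40 ± 0.20, adjusted p = 8.35e-04). The groups did not overlap. Nmb, the precursor of the itch peptide neuromedin B, measured 101, 97.9, 94.8 and 57.8 CPM with the mix and 29.6, 28.4, 31.0 and 23.9 CPM with control ASO (log2 fold change 1.62 ± 0.09). Its values were above every control value in all mice, but the gene overlaps Sec11a on the same strand. The granule proteins Scg3 and Chga rose by 0.68 ± 0.06 and 0.46 ± 0.05 on the log2 scale. Pam, which amidates peptides, had a log2 fold change of -0.46 ± 0.05, and an overlapping pseudogene on its strand, Gm3531, may take or give reads.

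Synaptic vesicle and SNARE genes had 24 higher and 7 lower of 46, with a median of 0.17, and 12 were lower with library size scaling alone. Cplx1, a complexin that clamps vesicle fusion, measured 720.2, 689, 769 and 596 CPM with the mix and 396, 379, 423 and 404 CPM with control ASO (log2 fold change 0.79 ± 0.06, adjusted p = 1.61e-08). The lowest mix value was well above the highest control value. Syp, Vamp2 and Rab3a, proteins of the vesicle membrane, rose by 0.69 ± 0.05, 0.64 ± 0.05 and 0.70 ± 0.06 on the log2 scale, and Snap25, their plasma membrane partner, by 0.73 ± 0.10. Syt1, the calcium sensor of release, rose by 0.30 ± 0.06, with groups that overlapped. Slc17a6, the vesicular glutamate transporter of sensory neurons, did not pass the test (-0.09 ± 0.05, adjusted p = 0.149), though it did without replicate 4 (-0.13, adjusted p = 0.0308).

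Axon growth draws on actin, microtubules and filaments of the growth cone, and on receptors for trophic and guidance cues. Actin, growth cone and neurofilament genes had 27 higher and 3 lower of 40, with a median of 0.26 (0.13 with library size scaling alone). Marcksl1, a regulator of membrane and actin, measured 112, 159, 107 and 116 CPM with the mix and 53.5, 62.0, 61.2 and 67.9 CPM with control ASO (log2 fold change 1.01 ± 0.10). Mix and control values did not overlap. Rtn4r, the Nogo receptor through which myelin inhibits axon growth, measured 36.7, 36.6, 26.9 and 16.6 CPM with the mix and 11.3, 11.8, 11 and 7.91 CPM with control ASO (log2 fold change 1.45 ± 0.13, adjusted p = 8.39e-07). Its mix values were lowest in mouse 4. Tmsb4x, which binds actin monomers, rose by 0.64 ± 0.06 and Actg1, cytoplasmic actin, by 0.46 ± 0.05 on the log2 scale. Smaller changes were those of Gap43, the growth cone protein (0.26 ± 0.05), and Nefl, the light neurofilament chain (0.30 ± 0.05), both with overlapping groups. Sprr1a, a gene induced by nerve injury, had a log2 fold change of 0.48 ± 0.07 that was called with the mouse block and not without it (0.48, adjusted p = 0.220).

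Neurotrophin, GDNF and FGF signalling had 15 higher and 12 lower of 41, with a median of 0.13. Ngfr, the shared low affinity neurotrophin receptor, measured 659, 529.7, 622 and 465 CPM with the mix and 303, 238, 298 and 289 CPM with control ASO (log2 fold change 1.01 ± 0.07, adjusted p = 1.83e-08). Each mix value was above each control value. Ret, the signalling receptor for GDNF ligands, rose by 0.35 ± 0.05 on the log2 scale with overlapping groups. Below the receptors, the docking protein Frs2 had a log2 fold change of -0.63 ± 0.08, and the FGF receptor Fgfr1 one of -0.48 ± 0.06.

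Axon guidance genes had 17 higher and 18 lower of 67, and these shares (25.4% and 26.9%) were near those of all tested genes (27.3% and 28.8%). Their median of -0.07 became 0.04 once the trend with length and GC content was removed. With library size scaling alone 11 were higher and 26 lower, without the mouse block 11 were higher, and without replicate 1, 2 or 3 the number lower was 11 each time. Plxna1, a semaphorin receptor, rose with a log2 fold change of 0.73 ± 0.06. Neo1, a netrin and RGM receptor, averaged 41.8 ± 1.95 CPM with the mix and 69.2 ± 7.34 CPM with control ASO (log2 fold change -0.72 ± 0.06). The secreted semaphorin Sema3g had a log2 fold change of -2.34 ± 0.18 and the ephrin receptor Ephb3 one of -0.87 ± 0.10. Robo1, Plxna4 and Epha4 did not pass the test, at -0.26 ± 0.12, -0.09 ± 0.05 and -0.37 ± 0.26. Plxna4 passed without replicate 4 (-0.12, adjusted p = 0.0391).

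Wnt, TGF-beta and interleukin 1 signalling genes were more often lower than higher with the mix. Of 54 Wnt genes, 15 were higher and 25 lower, with a median of -0.28. Fzd5, a Wnt receptor, measured 68.1, 70.1, 60.2 and 47.5 CPM with the mix and 20.3, 16.9, 17.5 and 18.7 CPM with control ASO (log2 fold change 1.74 ± 0.09). The compared values did not overlap, and the change from untransfected to control ASO was small (0.09 ± 0.09). Wnt9a, a ligand, averaged 62.2 ± 8.21 CPM with the mix and 30.3 ± 2.59 CPM with control ASO (log2 fold change 1.04 ± 0.10), and Dvl1, which relays receptor signals, rose by 0.59 ± 0.06 on the log2 scale. Lrp6, the Wnt co-receptor, averaged 28.8 ± 6.37 CPM with the mix and 47.4 ± 4.92 CPM with control ASO (log2 fold change -0.74 ± 0.07). The pathway's target Axin2 and its transcription factor Lef1 were both low, at 6.07 ± 1.45 and 1.46 ± 1.07 CPM with the mix. Their calls (0.40 ± 0.17 and -0.61 ± 0.23) ended without the mouse block (adjusted p = 0.0808 and 0.317). Axin2 also lost its call without replicate 1 (0.44), 2 (0.13) or 3 (0.46), and Lef1 without replicate 2 (-0.53) or 3 (-0.45).

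TGF-beta and BMP genes had 8 higher and 22 lower of 52, with a median of -0.30, and 4 were higher without replicate 2 and 3 without the mouse block. Tgfbr1, the type I receptor for TGF-beta, measured 13.7, 13.5, 10.2 and 21.1 CPM with the mix and 30.4, 26.4, 23.9 and 28.2 CPM with control ASO (log2 fold change -0.93 ± 0.11, adjusted p = 2.68e-06). Mouse 4 had the highest mix value, still below every control value, and untransfected cultures averaged 27.8 ± 2.66 CPM. Bmpr1a, a BMP receptor, averaged 50.0 ± 6.70 CPM with the mix and 75.3 ± 3.95 CPM with control ASO (log2 fold change -0.60 ± 0.07). The decoy receptor Bambi had a log2 fold change of -0.77 ± 0.08 and the ligand Tgfb1 one of -0.66 ± 0.09. Fstl1, a secreted BMP antagonist, rose to 1089 ± 204 CPM with the mix, against 735 ± 50.1 CPM with control ASO (log2 fold change 0.55 ± 0.06). Id1, a BMP target, rose by 0.52 ± 0.09 on the log2 scale, a call that ended without the mouse block (0.53, adjusted p = 0.110). Smad7, the inhibitory Smad, had -0.28 ± 0.07, a call that ended without replicate 1 (-0.21, adjusted p = 0.0532) or 3 (-0.18, adjusted p = 0.0874).

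NF-kB and interleukin 1 response genes had 11 higher and 24 lower of 47, with a median of -0.36, and 7 were higher without the mouse block. Il1a, the alarmin cytokine, was at the floor in control cultures. It had 54, 54, 51 and 25 counts in mix libraries and 1, 2, 0 and 0 counts in control ASO libraries. The summed 184 and 3 counts gave a ratio of 66.1 after trimmed mean scaling of library sizes, with an exact interval of 22.3 to 324 (95%) that covers counting error only. Nfkbiz, an atypical IkB induced in this pathway, measured 26.9, 28.7, 26.3 and 15.5 CPM with the mix and 7.54, 9.39, 8.47 and 8.10 CPM with control ASO (log2 fold change 1.53 ± 0.14, adjusted p = 5.32e-07). No mix value lay inside the control range. Nfkbib, an inhibitor of NF-kB, rose by 0.79 ± 0.09, while the receptor-associated kinase Irak1 had a log2 fold change of -0.65 ± 0.08. Cxcl1, a chemokine, averaged 8.26 ± 4.11 CPM with the mix and 1.89 ± 1.76 CPM with control ASO, and its call ended without the mouse block (2.18, adjusted p = 0.0576). The inhibitor Nfkbia (0.24 ± 0.15) and the receptor Il1r1 (-0.24 ± 0.11) did not pass the test; Nfkbia did without replicate 4 (0.44, adjusted p = 2.55e-04). Macrophage marker sums also lay higher with the mix (50.0 to 64.5 CPM, against 26.0 to 42.5 CPM with control ASO). Yet only 2 of 10 markers were called, both higher, and the median log2 fold change of the list was -0.20. A sum follows its most abundant members, and the part of macrophages in these cytokine genes was not tested.

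Repeat-derived and double-stranded RNA is read in cells by Toll-like and RIG-I-like receptors, which signal to interferon genes, and edited by ADAR enzymes. Of 29 genes for RNA sensors and inducers of interferon, 2 were higher with the mix and 19 lower, 65.5% against the 28.8% of all tested genes, and the median was -0.36. By mouse the median was -0.44, -0.32, -0.43 and -0.33 in mice 1 to 4, and without replicate 3 the number lower was 12 and the number higher 1. Adar, the RNA editing enzyme, measured 64.4, 69.8, 69.9 and 76.6 CPM with the mix and 108, 103, 103 and 99.7 CPM with control ASO (log2 fold change -0.56 ± 0.06, adjusted p = 1.51e-06). There was no overlap between the groups; the gene overlaps Chrnb2 on the other strand. Zc3hav1, which binds CpG-rich RNA, averaged 99.3 ± 3.46 CPM with the mix and 127 ± 8.65 CPM with control ASO (log2 fold change -0.35 ± 0.05). Mavs, the mitochondrial adaptor of the RIG-I-like receptors, averaged 0.916 ± 0.281 CPM with the mix and 2.93 ± 0.748 CPM with control ASO (log2 fold change -1.66 ± 0.20). Mavs was low in both groups, and the receptor genes were low too. Ddx58, encoding RIG-I, averaged 12.1 ± 1.80 CPM with the mix and 16.4 ± 0.767 CPM with control ASO (log2 fold change -0.44 ± 0.11). Ifih1, encoding MDA5, had a log2 fold change of -0.51 ± 0.14, Tlr3 one of -1.27 ± 0.29 with overlapping groups, and the ubiquitin ligase Trim56 one of -0.39 ± 0.06.

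RNase H and small RNA machinery had 5 higher and 14 lower of 27, with a median of -0.21. With the length and GC trend removed, 9 were higher and 9 lower. Neither Rnaseh1, the nuclease that acts on RNA paired with DNA (7.22 ± 1.04 CPM with the mix and 7.96 ± 0.720 CPM with control ASO), nor Rnaseh2a (17.1 ± 1.01 and 16.5 ± 0.950 CPM, mix and control ASO) passed the test. Tut4, which adds uridines to RNA ends, measured 24.3, 19.4, 20.6 and 25.2 CPM with the mix and 43.6, 43.7, 41.1 and 44.8 CPM with control ASO. The compared values did not overlap, untransfected cultures averaged 38.8 ± 3.41 CPM, and the log2 fold change was -0.96 ± 0.07 (adjusted p = 3.19e-08). Tnrc6a, the scaffold of microRNA silencing, averaged 48.6 ± 6.11 CPM with the mix and 79.6 ± 3.43 CPM with control ASO (log2 fold change -0.72 ± 0.06). The argonautes Ago2 and Ago3 had log2 fold changes of -0.34 ± 0.06 and -0.68 ± 0.07; that of Ago2 was no longer called once the trend with length and GC content was removed (-0.10). Drosha, which cuts primary microRNAs, rose to 110.0 ± 5.43 CPM with the mix, against 73.1 ± 5.04 CPM with control ASO (log2 fold change 0.59 ± 0.06).

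Of 47 replication-dependent and variant histone genes, 16 were higher and 11 lower (23.4%), with a median of 0.08, and 6 were lower without replicate 1. Of 71 histone methylation and Polycomb genes, 10 were higher and 45 lower (63.4%, against 28.8% of all tested genes), with a median of -0.33. With the trend of length and GC content removed, 39 were lower and the median was -0.19. Jmjd1c, a histone H3K9 demethylase family member, measured 147, 146, 137 and 160.3 CPM with the mix and 250.4, 255, 230.2 and 225 CPM with control ASO (log2 fold change -0.70 ± 0.06, adjusted p = 8.76e-08). All mix values lay below all control values. Setd2, which trimethylates H3K36 behind RNA polymerase II, averaged 50.3 ± 6.55 CPM with the mix and 79.9 ± 3.46 CPM with control ASO (log2 fold change -0.68 ± 0.06). Setdb1, which methylates H3K9 at repeats, averaged 18.0 ± 2.23 CPM with the mix and 30.4 ± 0.978 CPM with control ASO (log2 fold change -0.76 ± 0.07; it overlaps Cers2), while Trim28, the corepressor that recruits it, rose to 139.8 ± 10.8 CPM with the mix, against 90.6 ± 7.06 CPM with control ASO (log2 fold change 0.63 ± 0.06). Kmt2a had a log2 fold change of -0.46 ± 0.06. Ezh2, the Polycomb methyltransferase, was low in both groups (-0.46 ± 0.16), and its call ended without replicate 2 (-0.32), 3 (-0.43) or 4 (-0.42).

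Acetylation and chromatin remodelling genes had 15 higher and 40 lower of 73, with a median of -0.22 (-0.08 with the length and GC trend removed). The paired acetyltransferases Crebbp and Ep300 had log2 fold changes of -0.58 ± 0.06 and -0.49 ± 0.06. Crebbp measured 108, 112, 109.7 and 147 CPM with the mix and 176, 168, 172 and 191 CPM with control ASO. Control values stood apart from mix values in all 4 mice. Kat6a, another acetyltransferase, had a log2 fold change of -0.60 ± 0.07. The remodellers Chd9, Atrx and Smarca4 had -0.66 ± 0.06, -0.70 ± 0.08 and -0.35 ± 0.05 on the same scale, and Hdac5, a class II deacetylase, rose by 0.32 ± 0.06.

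**Figure D3:**
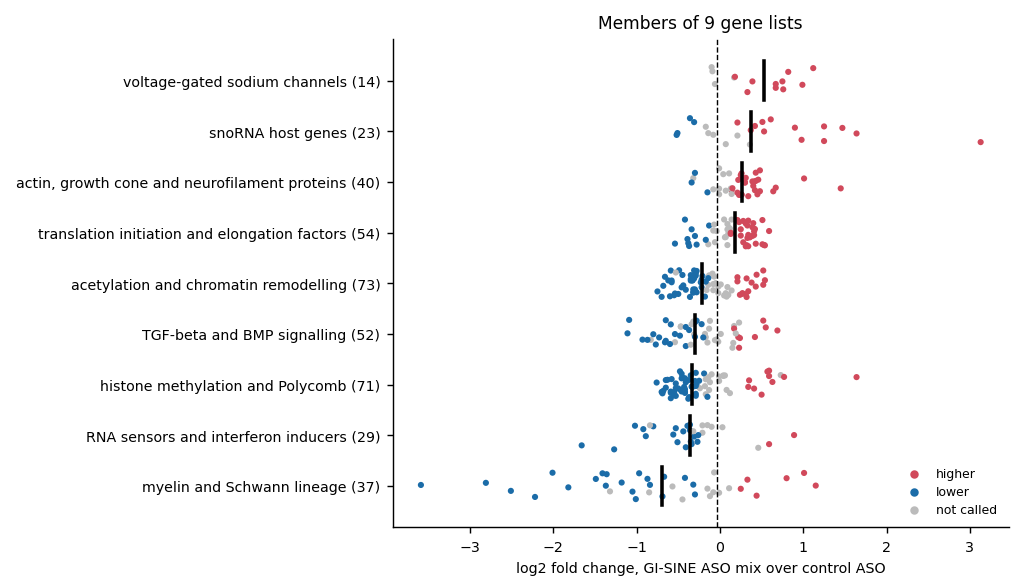
Log2 fold change of the mix over control ASO for each tested member of 9 gene lists (points, coloured by call), with the list's median (black bar) and the median of all tested genes (dashed line, -0.03). Sodium channels and snoRNA host genes lie mostly to the right of the dashed line, RNA sensors and Polycomb genes mostly to the left.

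Genes of RNA polymerase II, elongation and termination moved in both directions, with 25 higher and 26 lower of 73. Their median of -0.01 turned to 0.04 with the length and GC trend removed, and with library size scaling alone 15 were higher. Polr2a, the largest subunit of the polymerase, measured 193, 212, 205 and 260.5 CPM with the mix and 364, 374, 386 and 378 CPM with control ASO (log2 fold change -0.79 ± 0.07, adjusted p = 5.93e-07). There was no overlap between the groups, and control ASO cultures had been higher than untransfected ones (0.30 ± 0.07). Cdk9, the elongation kinase, averaged 86.6 ± 9.86 CPM with the mix and 57.7 ± 3.03 CPM with control ASO (log2 fold change 0.58 ± 0.07). Mepce, which caps the 7SK RNA that holds the kinase inactive, measured 90.1, 94.8, 82.2 and 86.9 CPM with the mix and 46.3, 43.2, 44.3 and 49.5 CPM with control ASO (log2 fold change 0.95 ± 0.06, adjusted p = 6.31e-09). The groups did not overlap. Hexim1, the inhibitor of the kinase, had 0.69 ± 0.17, a call that ended without replicate 1 (0.63, adjusted p = 0.0523) or 3 (0.69, adjusted p = 0.0603). Paf1, an elongation factor, rose by 0.62 ± 0.06 on the log2 scale. Taf1, the largest TFIID subunit, had a log2 fold change of -0.60 ± 0.06.

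Of 41 genes for mRNA 3' end processing and the Integrator complex, 7 were higher and 21 lower, with a median of -0.19. Among the rises were Ints12 (1.14 ± 0.09) and Ints1 (0.59 ± 0.07), Integrator subunits, and Lsm11 (0.85 ± 0.09), a protein of the U7 particle that processes histone mRNAs. Ints12 measured 32.5, 28.1, 27.7 and 22.7 CPM with the mix and 13.3, 11.3, 12 and 13.9 CPM with control ASO. Mix and control values did not overlap. Cstf3, a cleavage factor, had a log2 fold change of -0.60 ± 0.08, while Cpsf1 (0.05 ± 0.06) and Cstf2 (-0.04 ± 0.07) did not pass the test.

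In mRNA decay, 20 of 67 genes were higher and 33 lower, with a median of -0.16. Without replicate 1 or 3 the number lower was 21 and 20. Removing the trend of length and GC content gave 23 higher and 23 lower. The nonsense-mediated decay factors were divided. Upf1, the central helicase, measured 370.1, 393, 318 and 255 CPM with the mix and 165, 164, 179 and 158 CPM with control ASO (log2 fold change 0.99 ± 0.08, adjusted p = 2.95e-07). Smg8, which restrains the kinase Smg1, measured 77.3, 70.9, 66.2 and 60.9 CPM with the mix and 33.7, 33.4, 32.9 and 36.4 CPM with control ASO (log2 fold change 1.02 ± 0.08). Both genes had every mix value above every control value. Smg1 itself averaged 84.1 ± 4.43 CPM with the mix and 123 ± 8.89 CPM with control ASO (log2 fold change -0.55 ± 0.06). Skiv2l, a helicase of the cytoplasmic exosome, rose by 0.54 ± 0.06, and the exosome nuclease Exosc10 had -0.38 ± 0.07. Cnot1, the deadenylase scaffold, had -0.19 ± 0.06, a call that ended without replicate 1 (-0.18, adjusted p = 0.0524), 2 (-0.15, adjusted p = 0.0814) or 3 (-0.15, adjusted p = 0.0949).

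hnRNP and SR splicing factors had 28 higher and 18 lower of 68, and the median of 0.09 turned to -0.04 with library size scaling alone, under which 11 were higher and 24 lower. Srsf2 measured 219, 231, 202 and 142 CPM with the mix and 67.7, 67.7, 63.8 and 75.3 CPM with control ASO (log2 fold change 1.53 ± 0.13, adjusted p = 1.27e-05). The compared values did not overlap, and it shares its locus with Mfsd11. Srsf7 rose by 0.88 ± 0.09, Hnrnpa0 by 0.64 ± 0.06, Hnrnpa1 by 0.64 ± 0.10 and Son, a splicing cofactor of nuclear speckles, by 0.39 ± 0.05 on the log2 scale. Celf1, which binds GU-rich RNA, had a log2 fold change of -0.54 ± 0.06, and Srsf1 did not pass the test (0.00 ± 0.05).

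Host genes of small nucleolar RNAs had 13 higher and 4 lower of 23, with a median of 0.37. By mouse the median was 0.62, 0.28, 0.58 and 0.01 in mice 1 to 4. Snhg12 measured 14.3, 12.1, 15.2 and 8.28 CPM with the mix and 4.66, 5.01, 4.48 and 7.05 CPM with control ASO (log2 fold change 1.25 ± 0.23). Eif4a2, a helicase of translation initiation and also a host gene, measured 436, 369.6, 414 and 324 CPM with the mix and 275, 257, 266 and 268 CPM with control ASO (log2 fold change 0.53 ± 0.07). In both, the groups did not overlap. Snhg17 rose by 0.90 ± 0.12, Snhg1 by 0.61 ± 0.13 and Snhg3, which shares its locus with Rcc1, by 0.98 ± 0.15 on the log2 scale. Snhg9 had 25, 26, 26 and 15 counts with the mix and 3, 4, 0 and 4 counts with control ASO, and it neighbours the abundant Rps2. Gas5 averaged 31.5 ± 5.75 CPM with the mix and 22.2 ± 1.71 CPM with control ASO (0.51 ± 0.15), a call that ended without replicate 1 (0.44), 2 (0.51) or 3 (0.43).

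Nuclear long noncoding RNAs had 8 higher and 6 lower of 22, with a median of 0.05. The number higher was 3, 5 and 4 without replicate 1, 2 or 3, 5 without the mouse block, and 1 with library size scaling alone, where the median was -0.08. Malat1, a nuclear speckle RNA, averaged 4751 ± 782 CPM with the mix and 4791 ± 1402 CPM with control ASO and did not pass the test. Neat1, the scaffold of paraspeckles, measured 147, 168, 152 and 83.4 CPM with the mix and 42.7, 111, 28.2 and 43.7 CPM with control ASO (log2 fold change 1.39 ± 0.45, adjusted p = 0.0382). The groups overlapped, and the call ended without replicate 1 (1.25, adjusted p = 0.174) or 3 (1.11, adjusted p = 0.165). Meg3 and Miat had log2 fold changes of 0.47 ± 0.12 and -0.30 ± 0.06, called with the mouse block and not without it (0.48, adjusted p = 0.208, and -0.30, adjusted p = 0.339). Ftx and Firre, which act at the X chromosome and in nuclear architecture, had -0.95 ± 0.19 and -0.51 ± 0.10, and Peg13, an imprinted RNA inside Trappc9 on its strand, had a log2 fold change of 0.23 ± 0.05, a call that ended with library size scaling alone (0.10, adjusted p = 0.105).

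Translation initiation and elongation factors had 29 higher and 10 lower of 54, with a median of 0.18. Eif6, which keeps the ribosomal subunits apart, measured 183, 194, 160.1 and 153 CPM with the mix and 113, 117, 114 and 113 CPM with control ASO (log2 fold change 0.59 ± 0.06). No mix value lay inside the control range. Eef2, the translocase, averaged 2290.4 ± 254 CPM with the mix and 1778 ± 104 CPM with control ASO (log2 fold change 0.36 ± 0.05), and Eef1d and Eif4e2 rose by 0.51 ± 0.07 and 0.41 ± 0.05 on the log2 scale. Eif4e, the cap-binding protein, averaged 149 ± 15.0 CPM with the mix and 196 ± 24.0 CPM with control ASO (log2 fold change -0.39 ± 0.06), with groups that overlapped, and Eif2s1 did not pass the test (-0.14 ± 0.08).

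Circadian clock genes had 8 higher and 10 lower of 26, and their median of -0.12 turned to 0.03 with the length and GC trend removed, where 8 were higher and 5 lower. Without replicate 1, or without the mouse block, 6 were lower. Per1, a repressor in the clock loop that cyclic AMP also induces, measured 143, 165, 135 and 94.0 CPM with the mix and 77.8, 73.8, 77.5 and 69.5 CPM with control ASO (log2 fold change 0.83 ± 0.10). Nr1d1, the nuclear receptor REV-ERB alpha, measured 55.8, 58.5, 56.0 and 47.6 CPM with the mix and 18.3, 15.8, 17.6 and 34.1 CPM with control ASO (log2 fold change 1.45 ± 0.29, adjusted p = 0.00542). Neither gene's groups overlapped; Nr1d1 overlaps Thra on the other strand. Ciart, a clock repressor, averaged 10.3 ± 3.78 CPM with the mix and 3.28 ± 0.470 CPM with control ASO (log2 fold change 1.65 ± 0.23), and Cry2 and Csnk1d rose by 0.30 ± 0.05 and 0.35 ± 0.06 on the log2 scale. The activators Arntl (-0.37 ± 0.13) and Clock (-0.31 ± 0.07) and the repressors Cry1 (-0.39 ± 0.08) and Nr1d2 (-0.36 ± 0.08), chosen after their values were seen, were lower. Arntl lost its call without replicate 1 (-0.35), 2 (-0.36) or 3 (-0.30), Nr1d2 without the mouse block (-0.35, adjusted p = 0.186) and Clock with the length and GC trend removed (-0.09). Dbp, an output gene, did not pass the test (-0.09 ± 0.19).

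Collagen and myelin genes were lower with the mix more often than higher, on top of lower levels in control ASO than in untransfected cultures. Of 35 collagen chains, 4 were higher and 14 lower with the mix, with a median of -0.55, and the median from untransfected to control ASO was -1.62. Without replicate 1, 2 or 3 the number higher was 1, 1 and 2. Col1a1, the main fibrillar chain, averaged 4.46 ± 1.33 CPM with the mix, 9.72 ± 3.77 CPM with control ASO and 167 ± 12.1 CPM untransfected, and its groups with the mix and control ASO overlapped (log2 fold change -1.10 ± 0.25). Col27a1 had a log2 fold change of -1.17 ± 0.26. Col4a1, of basement membranes, and Col6a1 did not pass the test (-0.89 ± 0.33 and 0.20 ± 0.18), Col4a1 passing without replicate 4 (-1.15, adjusted p = 0.0365). Col5a3 was called with the mouse block (-0.55 ± 0.06) and not without it (-0.54, adjusted p = 0.333). Col11a2 went the other way and measured 13.4, 16.8, 10.5 and 5.54 CPM with the mix and 2.62, 3.03, 2.56 and 3.89 CPM with control ASO (log2 fold change 1.92 ± 0.26). Control values stood apart from mix values in all 4 mice. Fibroblast marker sums lay lower with the mix (215 to 348 CPM, against 370.3 to 553 CPM with control ASO and 1271 to 1637 CPM untransfected), and their part in the collagen values was not tested.

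Myelin and Schwann lineage genes had 6 higher and 21 lower of 37, with a median of -0.69, and the median from untransfected to control ASO was -1.22. Without the mouse block 12 were lower. Sox10, the glial lineage factor, measured 1.05, 2.77, 2.08 and 6.76 CPM with the mix and 11.2, 31.2, 15.3 and 27.6 CPM with control ASO, beside 88.0 ± 21.8 CPM on average in untransfected cultures. No mix value reached a control value (log2 fold change -2.81 ± 0.41, adjusted p = 0.00115). Pou3f2, a factor of promyelinating Schwann cells, averaged 0.632 ± 0.346 CPM with the mix and 2.94 ± 1.06 CPM with control ASO (log2 fold change -2.22 ± 0.22). Ngfr, given above among the neurotrophin receptors, is also in this list and was higher. Summed Schwann cell markers did not lie lower with the mix (687 to 855 CPM, against 621 to 695 CPM with control ASO). Yet 7 of 11 were called lower and 2 higher, with a median log2 fold change of -0.84, and a sum follows its most abundant members. The part of cell shares in these values was not tested.

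The other lists are given by their counts in the plot of all 57 lists. Among them, ribosome biogenesis genes had 21 higher and 43 lower of 89, DNA repair genes 10 and 23 of 79, Notch genes 8 and 14 of 33, autophagy genes 16 and 21 of 52, and basement membrane genes 6 and 22 of 55 (higher and lower in each pair). DNA repair genes had 14 lower without replicate 2 and 36 with library size scaling alone, Notch genes 5 higher without replicate 3, and basement membrane genes 14 lower without the mouse block. Proteasome genes had 21 higher and 10 lower of 49, and tubulins and microtubule proteins 23 and 10 of 48; both medians (0.08 and 0.11) turned below 0 with library size scaling alone (-0.04 and -0.01). Proteasome genes had 6 lower without replicate 1 and 5 without replicate 2, and tubulins and microtubule proteins 6 without either replicate 1 or 3. Mitochondrial ribosome (19 and 21 of 80), citrate cycle (15 and 18 of 65) and tRNA synthetase and processing genes (16 and 18 of 60) had shares near the background on both sides. Without replicate 3 the number lower was 12 for mitochondrial ribosome genes and 10 for tRNA synthetase and processing genes, and without replicate 1 it was 11 for the tRNA list. Library size scaling alone gave 7 higher and 29 lower for the citrate cycle.

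**Figure D4:**
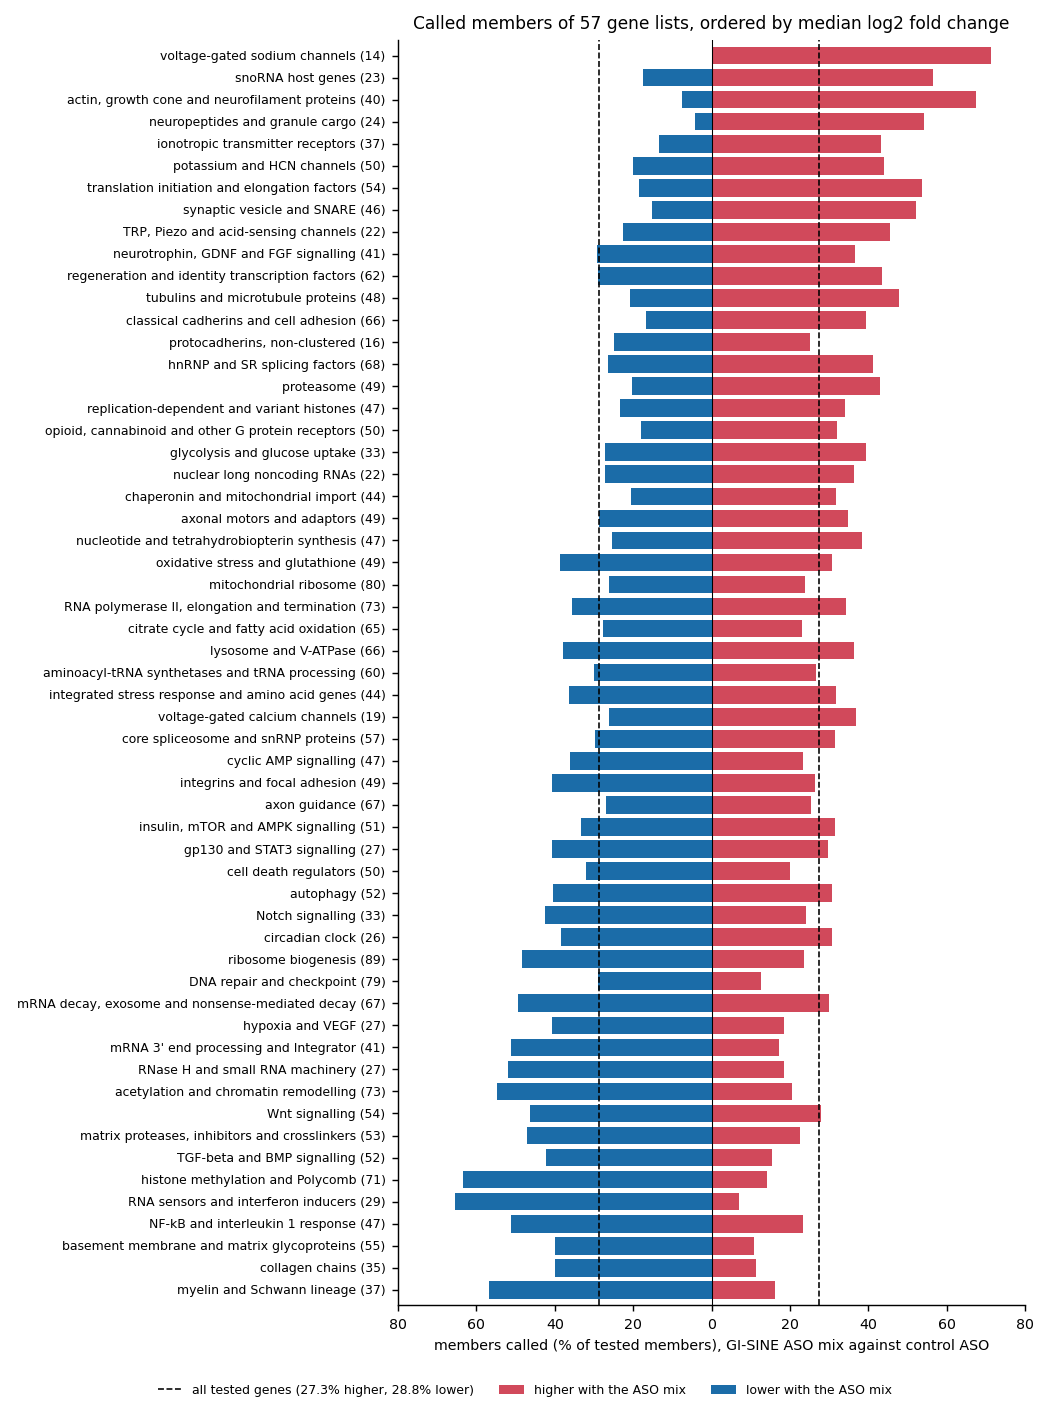
Share of tested members called higher (right) and lower (left) with the mix for 57 gene lists, ordered by median log2 fold change, with the number tested in parentheses. Dashed lines mark the shares over all tested genes, 27.3% higher and 28.8% lower; sodium channels pass the right line furthest and RNA sensors the left.

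Gene architecture also went with the direction of change. Protein-coding genes were put into 5 equal bins by each property. By genomic span, the bin of shortest genes (102 to 8411 bp) had 47.2% higher and 13.6% lower with the mix. The bin of longest genes (79625 to 2960900 bp) had 15.5% higher and 41.8% lower. Transcript length gave 40.1% higher and 15.7% lower in its shortest bin, and 15.2% higher and 50.3% lower in its longest. Once a smooth trend with transcript length and GC content had been removed from each library, these transcript length shares came to 28.7% higher and 26.0% lower in the shortest bin and 28.6% higher and 32.1% lower in the longest. Span kept a gradient in that fit, with 39.3% higher and 19.4% lower in the shortest bin and 24.6% higher and 29.1% lower in the longest. The removed trend held transcript length and GC content but not span, so evener shares by transcript length were built in. The fit therefore cannot rank span against transcript length. Within the bin of shortest transcripts, genes of the shortest spans had 49.9% higher and 10.6% lower, and the 76 genes of the longest spans 21.1% higher and 21.1% lower. The most GC-rich bin of transcripts had 40.4% higher and 21.9% lower, and the least GC-rich bin 18.6% higher and 37.0% lower. Antisense genes (353 tested) had 37.4% higher and 10.2% lower. Other noncoding classes also had more genes higher than lower, with 32.6% and 17.4% for long intergenic noncoding RNAs and 27.0% and 7.03% for processed pseudogenes. From untransfected to control ASO cultures the median log2 change was 0.25 for antisense and also for long intergenic genes. Whether the counting used strand was not given, so antisense reads may belong to the genes opposite.

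**Figure D5:**
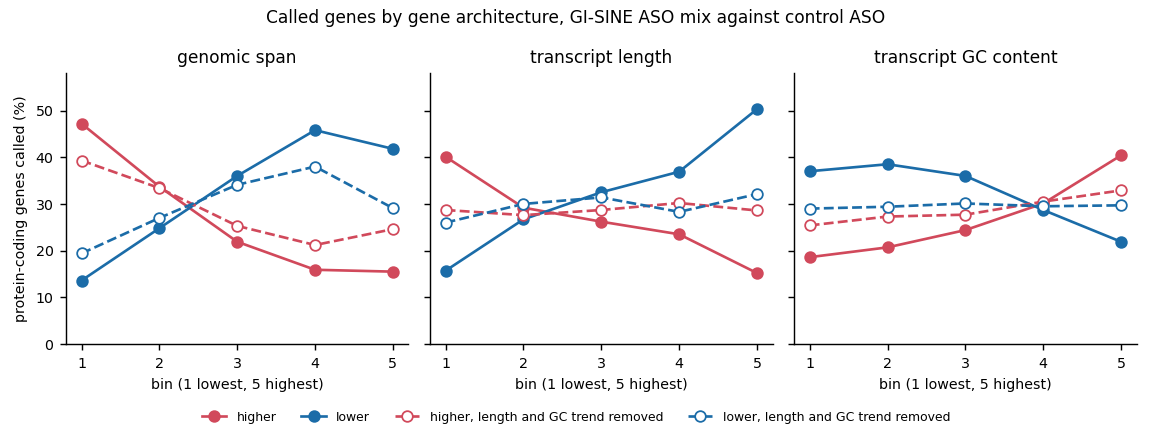
Share (%) of protein-coding genes called higher or lower with the mix against control ASO, in 5 equal bins of genomic span, transcript length and transcript GC content (bin 1 lowest). Solid lines are the main fit and dashed lines the fit with the length and GC trend removed. The dashed lines are flatter than the solid ones, and keep more of their slope for span than for transcript length. The removed trend held transcript length and GC content but not span, so flatter lines for those properties were built in. The slopes left cannot rank span against length.

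Promoters were searched because several of the rises named above (Per1, Plk2, Gadd45b) are in genes that cyclic AMP or activity is known to induce. Cyclic AMP signalling genes had 11 higher and 17 lower of 47, with a median of -0.04 (0.04 with the length and GC trend removed). Without replicate 1 these counts were 7 and 11, and with library size scaling alone 7 and 20. The window ran from 250 bases before to 50 after the start site in RefSeq sequence (GRCm38.p6), with 14739 promoters for 11516 tested genes. The cyclic AMP response element, TGACGTCA, was in 2.96% of all promoters, in 3.81% of those of genes called higher and in 2.46% of those of genes called lower (both strands searched). At 2-fold or more it was in 2.91% of promoters of higher genes, near the 2.96% of all promoters, and in 0.941% of those of lower genes. For the ETS motif CCGGAAG the shares were 15.6% of all, 10.1% of genes at least 2-fold higher and 3.76% of genes at least 2-fold lower. The TATA motif TATAAA was in 7.29% of all promoters, 11.8% of those at least 2-fold higher and 9.88% of those at least 2-fold lower. The AP-1 motif TGANTCA, which has no match inside TGACGTCA, was in 5.38% of all promoters, and in 7.36% and 7.29% of those at least 2-fold higher and lower. The NFY motif ATTGGC was in 18.4% of all, and in 23.4% and 15.8% of those at least 2-fold higher and lower. The E-box CACGTG was in 9.49% of all promoters, 10.1% of those at least 2-fold higher and 6.12% of those at least 2-fold lower, and the YY1 motif AAGATGGC in 3.98%, 2.13% and 0.941% in the same order. A match is a description of letters in a window, not of binding. Stretches around the response element are shown for 3 genes that rose, to show where it lies, with the element in capitals, 5′ to 3′ on the gene's strand. Cycs encodes cytochrome c and Btg2 an antiproliferative protein; Btg2 was chosen after its values were seen.
Plk2, chr13:110394932-110395039, plus strand: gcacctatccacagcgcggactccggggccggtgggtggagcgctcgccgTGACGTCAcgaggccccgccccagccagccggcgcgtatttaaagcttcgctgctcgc
Cycs, chr6:50566681-50566788, minus strand: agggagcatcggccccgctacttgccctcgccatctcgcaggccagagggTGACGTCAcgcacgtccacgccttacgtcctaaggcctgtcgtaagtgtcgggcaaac
Btg2, chr1:134079264-134079371, minus strand: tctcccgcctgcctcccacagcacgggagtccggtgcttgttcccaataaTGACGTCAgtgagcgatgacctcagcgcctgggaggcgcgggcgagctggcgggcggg
Counted from the start site, the first base of the element lay at position -62 in Plk2, -169 in Cycs and -166 in Btg2. Plk2 averaged 228 ± 22.3 CPM with the mix and 56.3 ± 29.0 CPM with control ASO. Cycs averaged 11.5 ± 3.14 CPM with the mix and 4.90 ± 0.478 CPM with control ASO (log2 fold change 1.23 ± 0.17), and Btg2 81.8 ± 6.42 and 37.3 ± 12.6 CPM (mix and control ASO; log2 fold change 1.19 ± 0.18). In each of these genes the mix values lay above all control values.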

How the data were processed

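RNA was measured by RNA sequencing in 12 libraries of mouse dorsal root ganglion cultures, 4 per condition. Per the labels, RNA was purified with RNeasy Mini columns, made into TruSeq Stranded RNA libraries and sequenced in 2 ends of 150 bases. The authors deposited raw counts per gene; the submitters' processing notes name bcl2fastq 2.17, STAR, HTSeq and the GRCm38 (mm10) build, and neither the release of the annotation nor whether counting used strand was given in the sources used here. Symbols, lengths and GC content came from GENCODE M21, which matched 48435 of 48795 identifiers, and promoter sequences from RefSeq (GRCm38.p6).

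Counts were filtered by edgeR 4.0.16's default rule and scaled by trimmed mean of M values (TMM). The model held condition and mouse for all 12 libraries and was tested by robust quasi-likelihood with Benjamini-Hochberg adjustment over all 16831 genes (R 4.3.3). Adjusted p-values are from this fit, and an alternative is named where its value is used; the error printed with a log2 fold change is its standard error, and CPM is TMM-scaled. The labels tie each replicate number to 1 mouse. Deviations of same-numbered libraries from their group means correlated at 0.138 to 0.557, and 24 of 24 comparisons were highest with the library's own number. Limma 3.58.1, DESeq2 1.42.0 and mgcv 1.9.3 (the trend in length and GC) gave the alternatives, with Python 3.11.15, pandas 2.3.3 and numpy 2.4.6 for the rest. The scripts were tested on simulated data.

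Genes named were those past the test that averaged at least 4 in log2 CPM and had 1 direction in all 4 mice: the 12 largest rises and falls, the 10 of each with a change on transfection between -0.25 and 0.25 on the log2 scale, and the 4 smallest p of each (these by abundance alone). From each gene list, leading members chosen by name and up to 4 members with the smallest p are named whether or not they passed the test or that level; a few of these are not reported here. The comparison and its 57 gene lists and 9 marker lists were chosen with earlier results of these data known. Some named genes overlap another expressed gene (among them Nefl, P2rx3, Rnaseh2a, Cstf3, Dbp, Nfkbib, Col4a1, Gas5, Impdh2, Clock, Rab3a, Jmjd1c, Trim28, Tm7sf3, Uck1, Ints12, Skiv2l, Cpsf1, Son, Ago2 and Upf1, beside those named in the text), and reads there may be shared. A summary of all libraries lies in the first principal component of log2 CPM with a prior count of 2.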

Additional observations from a re-analysis of the deposited data

Results flagged for a closer look

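Of 422 groups of 4 values checked (the CPM of 211 named genes in mix and in control ASO libraries), 45 had 1 library far from the other 3 by Dixon's gap ratio. Chance flags about 1 in 20 groups. The library of mouse 4 was the distant one in 19 mix groups and 19 control ASO groups. All values below are CPM, with the range of the other 3 libraries of the same group beside each. With the mix, mouse 4 was high for Ago2 (263, the others 210.2 to 217), Bambi (17.5, the others 11.1 to 11.7), Col4a1 (110.2, the others 16.1 to 30.4), Crebbp (147, the others 108 to 112), Exosc10 (31.8, the others 22.4 to 24.0), Gtpbp4 (18.1, the others 12.1 to 12.6), Kmt2a (196, the others 147 to 151), Lef1 (3.04, the others 0.760 to 1.15), Lrp6 (38.3, the others 24.9 to 26.6), Peg13 (254, the others 232 to 235), Sash1 (19.9, the others 10.4 to 11.3), Setd2 (60.0, the others 46.0 to 48.1) and Setdb1 (21.3, the others 16.5 to 17.1). With the mix, mouse 4 was low for Cycs (6.76, the others 12.6 to 13.3), Malat1 (3579, the others 5110.1 to 5190.3), Meg3 (232, the others 483 to 514), Nmb (57.8, the others 94.8 to 101), Syp (511, the others 695 to 718) and Vamp2 (607, the others 857 to 879). With the mix, mouse 2 was high for Axin2 (8.25, the others 5.30 to 5.37), Ints1 (130.0, the others 98.6 to 103) and Plxna1 (176, the others 154 to 158) and low for Cstf3 (12.8, the others 15.2 to 15.5). With the mix, mouse 3 was low for P2rx4 (28.3, the others 33.0 to 34.0). 

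With control ASO, mouse 4 was high for Btg2 (56.2, the others 30.1 to 32.0), Cad (53.2, the others 47.8 to 48.1), Gadd45b (74.6, the others 21.9 to 22.8), Gtpbp4 (28.9, the others 24.1 to 24.8), Id1 (24.7, the others 13.6 to 15.0), Impdh2 (10.1, the others 7.94 to 8.17), Lef1 (3.83, the others 1.37 to 1.76), Nfkbia (36.1, the others 16.0 to 19.1), Nr1d1 (34.1, the others 15.8 to 18.3), Nr1d2 (28.4, the others 18.9 to 20.3), Plk2 (99.5, the others 37.7 to 44.0) and Rfx7 (35.5, the others 24.6 to 25.9). With control ASO, mouse 4 was low for Asic3 (21.6, the others 31.2 to 33.1), Fgfr1 (312, the others 389 to 404), Hrh1 (21.0, the others 33.0 to 33.7), Htr3a (21.3, the others 31.0 to 32.7), P2rx3 (379, the others 531 to 546), Scn2a (12.2, the others 14.2 to 14.5) and Skiv2l (90.4, the others 98.9 to 100.4). Mouse 1 with control ASO stood apart for Ciart (2.57, the others 3.49 to 3.52) and mouse 2 for Fbln2 (102, the others 38.3 to 45.5).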

How the results depend on the processing

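The mix changed between 7389 and 10217 genes when each mouse was left out in turn (9454 with all mice), with 3723 to 5021 higher and 3666 to 5196 lower; the highest count was that without mouse 4. Without the mouse block, 7967 genes were called, 3942 higher and 4025 lower. DESeq2's Wald test called 8366, limma-voom 9614, and edgeR with DESeq2's size factors 9391. Library size scaling alone called 9924, of which 3373 were higher and 6551 lower. The fit with the length and GC trend removed called 9241, that without the 3 loci that collect ribosomal RNA reads 9394, that of the 8 compared libraries 8824, that with no filter 9718 of 33298 tested and that with a stricter filter 8315 of 13164 tested. Requiring a fold change of at least 1.5 left 3490 genes (1871 higher and 1619 lower), and at least 2-fold left 1388 (836 higher and 552 lower); fewer pass by construction. Of 211 named genes, 171 kept direction and side of the threshold under every alternative above other than the fold thresholds. The pairing of cultures by mouse mattered for 11 named genes whose call ended without the mouse block, and the value stands beside the gene; the other 200 kept their side of the threshold, called or not. Library size scaling alone ended 5 calls and added 13. With the length and GC trend removed, 4 genes turned direction: Cnot1 (0.05, against -0.19), Cstf2 (0.17, against -0.04), Plxna4 (0.12, against -0.09) and Scn9a (0.17, against -0.06), where the second value is from the reported fit. In the fit without the trend, Cstf2 (adjusted p = 0.0320), Plxna4 (0.0285) and Scn9a (0.00232) passed the test and Cnot1 (0.341) did not. The cause of these turns was not tested. Member counts of the gene lists moved by over 1.5 times most often under library size scaling alone, in 18 of 57 lists for members higher and 15 for members lower. Depth limits genes of a few counts per library, such as Il1a and Snhg9.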
